A study of Mus musculus with 6 samples.

Results

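The 78 genes described here carry an Mrpl or Mrps symbol in the mouse, and all but Mrps36 encode mitochondrial ribosomal proteins. They are the rows of the raw count table whose GENCODE M21 symbol begins with Mrpl or Mrps followed by a digit, with rows named as pseudogenes left out. The table holds 49315 gene rows, and the members were chosen by name and not by any measured value. By symbol, 49 of them (Mrpl) belong to the large subunit and 29 (Mrps) to the small subunit. All 78 passed the filter on low counts and were among the 12274 genes tested.

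Mitochondria keep their own ribosome, which translates only the few membrane subunits of the respiratory chain and the ATP synthase that are encoded in mitochondrial DNA. Its ribosomal RNAs come from the mitochondrial genome, but every one of its proteins is encoded in the nucleus, made in the cytosol and imported. The small subunit binds the mRNA and decodes it, and the large subunit forms the peptide bond and carries the nascent chain to the inner membrane. Some of the proteins have a bacterial homologue, and others are found only in mitochondrial ribosomes.

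The cells were RAW264.7, a mouse macrophage-like line derived from a virus-induced tumour, labelled as wild type. One group of 3 libraries came from cells given 4 μg/mL of SKI-II, a sphingosine kinase inhibitor, and the other group of 3 from cells given the DMSO vehicle, in both cases for 24 h. All cells were of the same line. The study's methods refer for the treatment to an assay done with biological replicates, but the labels do not say which cultures the libraries came from, so the p-values measure the spread between these libraries, part of which may be technical. The comparison asks what the compound does to the transcriptome of macrophages, and here to the mRNAs of this one organelle's ribosome.

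Each library held between 12495957 and 20050677 counts, of which the members took between 0.301% and 0.376%. A single member had between 8 and 3064 counts in a library. All 10 macrophage markers passed the filter. Of these Cd14 rose and Mrc1, Lyz2, Itgam and Adgre1 fell, and their summed level lay between 8840 and 12900 counts per 1000000 (CPM) with DMSO and between 5440 and 7780 with SKI-II. Of 18 markers of T cells, epithelium, fibroblasts, endothelium and neutrophils 1 passed the filter, and the 18 summed to between 3.15 and 7.97 CPM in every library. The libraries of a group kept an order for many of these genes. DMSO 3 held the highest value of its group for 56 of the 78 members and SKI-II 3 for 53, and DMSO 1 held the lowest for 47 and SKI-II 1 for 50. Counts are relative to the total of a library, so less RNA per cell and fewer cells of one state cannot be told apart.

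Across the ribosome the shift was small and mostly downward. In the edgeR quasi-likelihood fit with Benjamini-Hochberg adjustment, 15 of the 78 members (19.2%) fell with SKI-II and 6 (7.69%) rose, while 57 were not called at an adjusted p below 0.05. Over all tested genes 19.7% were called lower and 18.4% higher, so in this fit the share of members called lower was near that of the whole table and the share called higher was below it. The lower share depended on the fit. It was 24.4% of members beside 11.1% of all genes with no filter, 26.9% beside 18.8% without DMSO 1, and 26.9% beside 18.9% without SKI-II 3. It was 15.4% beside 17.7% without DMSO 3, 15.4% beside 14.0% without DMSO 2, 15.4% beside 16.0% without SKI-II 1, and 12.8% beside 14.7% without SKI-II 2. The higher calls numbered 3 without DMSO 1 (3.85%, beside 17.5% of all genes), 2 without DMSO 2 (2.56%, beside 1507 of 12589 genes) and 2 without SKI-II 3 (2.56%, beside 17.7%). With DMSO 3 and SKI-II 3 both left out, a fit added after seeing the data, 4 were higher (5.13%, beside 18.5% of all genes) and 17 lower (21.8%, beside 19.4%). The median log2 fold change of the members was -0.25, a level 84.0% of that with DMSO, beside a median of 0.00 over all tested genes. The fitted change was below 0 for 54 members (69.2%), beside 49.8% of all tested genes. The quartiles of the members were -0.44 and 0.07, and those of all tested genes -0.40 and 0.42.

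No member moved far. The fold changes ran from -0.82 for Mrpl28 to 0.87 for Mrpl24 on the log2 scale, and edgeR, DESeq2 and limma-voom each called 0 members with a log2 fold change above 1 or below -1, beside 8.28% of tested genes above 1 and 7.44% below -1. At an unadjusted p below 0.05 edgeR gave 9 members higher (11.5%) and 25 lower (32.1%), none of them beyond that size, beside 23.4% and 23.9% of all tested genes. The standard error of a member's log2 fold change was 0.16 at the median and lay between 0.11 and 0.42. For 30 members (38.5%) every SKI-II library was below every DMSO library, where 25.5% of tested genes did so, and for 11 (14.1%) every SKI-II library was above, where 24.8% did so.

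**Figure D1:**
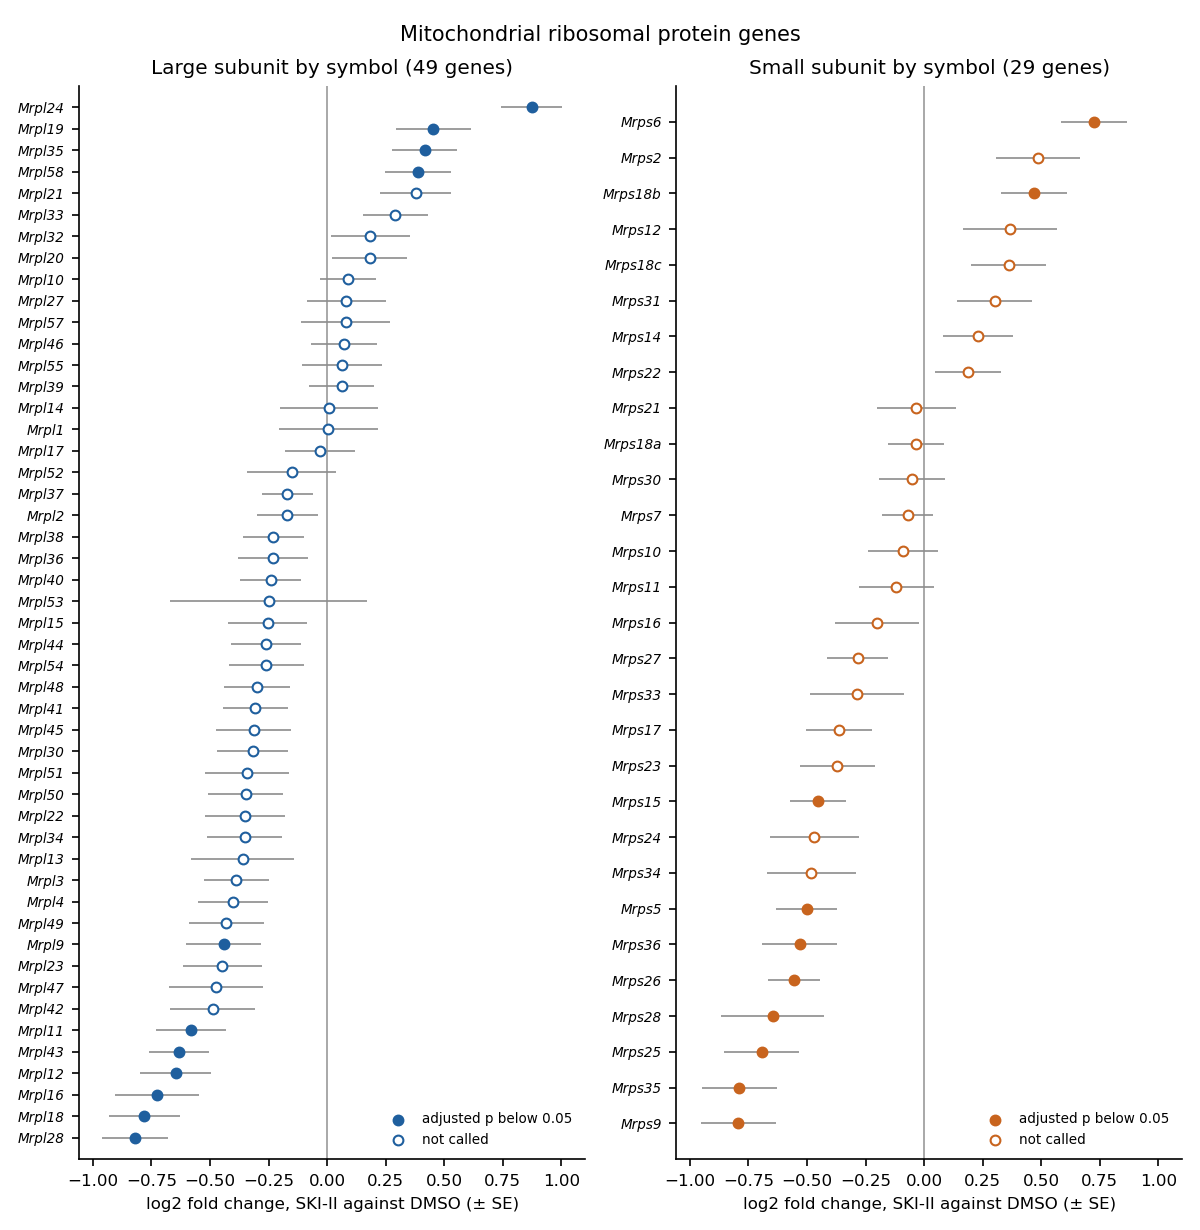
Fitted log2 fold change of each member with SKI-II against DMSO (x axis) with its standard error, ordered within the large subunit (left, 49 genes) and the small subunit (right, 29 genes), 3 libraries a group. Filled points passed an adjusted p below 0.05. Most points of both panels lie left of 0, and all lie between -0.82 and 0.87.

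The medians of the large and the small subunit were close. The median log2 fold change was -0.25 for the 49 large subunit genes and -0.20 for the 29 small subunit genes. In the large subunit 7 genes fell (14.3%) and 4 rose (8.16%), and in the small subunit 8 fell (27.6%) and 2 rose (6.9%), beside 19.7% of all tested genes lower and 18.4% higher. The members share libraries and are not replicates, so no test was made between the subunits. These counts moved with single libraries and with other choices. In the large subunit the higher calls numbered 1 without DMSO 1, DMSO 2 or SKI-II 3 and 2 without SKI-II 1 or SKI-II 2, and the lower calls 11 without DMSO 1 or SKI-II 3. In the small subunit the higher calls numbered 1 without DMSO 2 or SKI-II 3, the lower calls 5 without SKI-II 2, and the median was -0.32 without DMSO 1. With no filter 2 large subunit genes were called higher, and among members without exon overlap 1 was higher and 3 lower in the large subunit and 0 were higher in the small subunit.

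Symbols do not give the subunit in every case. Mrps30 and Mrps18a encode proteins that sit in the large subunit of the mammalian particle, and Mrps36 encodes a subunit of the alpha-ketoglutarate dehydrogenase complex and not a ribosomal protein. Placed by structure, the 51 large subunit genes had a median of -0.25 with 7 lower and 4 higher, and the 26 small subunit genes a median of -0.24 with 7 lower and 2 higher. The medians of the subunits thus came to lie within 0.01 of each other.

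Summed over its genes, each subunit was lower on average with SKI-II. The large subunit summed to 2251, 2369 and 2707 CPM in DMSO 1 to 3 and to 1974, 2156 and 2417 CPM in SKI-II 1 to 3, a ratio of means of 0.893. The small subunit summed to 1172, 1211 and 1286 CPM with DMSO and to 1007, 1106 and 1181 CPM with SKI-II, a ratio of 0.897. For both sums SKI-II 3 reached into the DMSO range, and the other SKI-II libraries lay below it. The large to small ratio was 1.92, 1.96 and 2.10 with DMSO and 1.96, 1.95 and 2.05 with SKI-II, a mean of 1.99 ± 0.0976 (SD, n = 3) against 1.99 ± 0.0533 (SD, n = 3). The balance of the subunits at the mRNA level therefore differed by less than the spread between libraries.

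**Figure D2:**
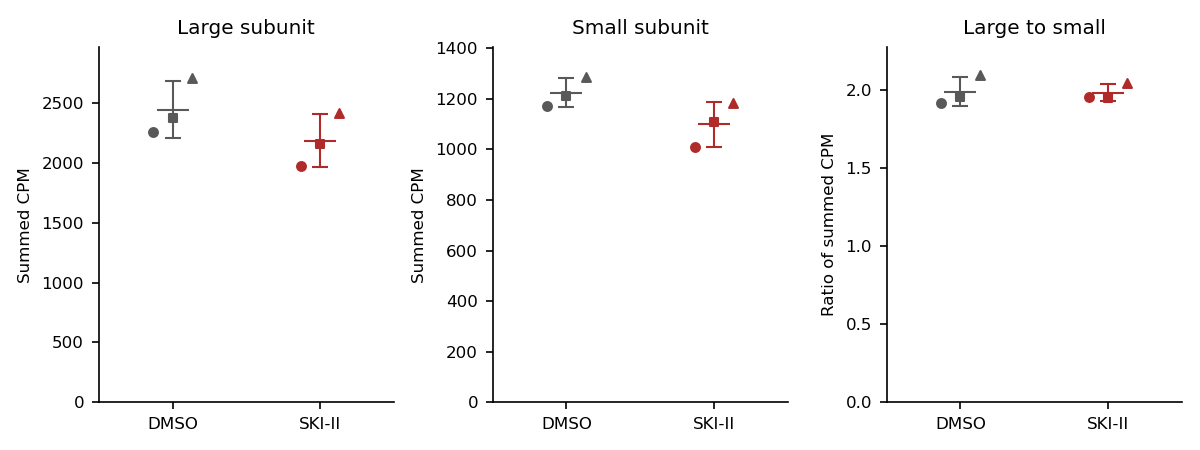
Summed CPM of the large subunit genes, of the small subunit genes, and the ratio of the sums (y axes, from 0) in each DMSO and SKI-II library. Points are libraries, with the bar at the mean and its SD, n = 3. The sums are lower on average with SKI-II but overlap, and the ratio has a mean of 1.99 in both groups.

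The members were also divided by origin, with no test between the classes. Of 46 whose place in the particle is that of a bacterial protein 10 fell (21.7%) and 4 rose (8.7%), with a median of -0.19, beside 19.7% and 18.4% of all tested genes. Of 31 in places found only in mitochondrial ribosomes 4 fell (12.9%) and 2 rose (6.45%), with a median of -0.26. The second class includes Mrps18a and Mrps18b, which descend from a bacterial protein but sit elsewhere. The remaining member is Mrps36. Among the added proteins 17 of 21 in the large subunit had a change below 0, but 1 passed the test in each direction.

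Among the large subunit genes that fell, Mrpl28 changed most. Its normalized counts (counts over the effective size of each library, set to the mean of these sizes) were 960, 953 and 1129 with DMSO and 492, 622 and 609 with SKI-II. Every SKI-II library lay well below every DMSO library, and the log2 fold change was -0.82 ± 0.14 (SE, adjusted p = 0.0016, edgeR). The gene lies at chr17:26123500-26126613 of GRCm38, and no exon of another gene overlaps it.

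Mrpl18 encodes the large subunit protein whose relatives bind 5S ribosomal RNA. It had 913, 661 and 857 normalized counts with DMSO and 486, 506 and 426 with SKI-II. The log2 fold change was -0.78 ± 0.15 (SE, adjusted p = 0.00345, edgeR), with DMSO 2 the closest to the treated libraries. The exons of Tcp1, a chaperonin subunit on the opposite strand, cover 10.1% of those of Mrpl18, and Tcp1 itself fell by 0.59 on the log2 scale with 34343 counts in all libraries beside 3815 for Mrpl18.

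Mrpl16 belongs to a protein family that lines the peptidyl transferase centre. Its normalized counts were 449, 542 and 657 with DMSO and 318, 299 and 378 with SKI-II, a log2 fold change of -0.73 ± 0.18 (SE, adjusted p = 0.00926, edgeR). The DMSO libraries were spread more widely than the SKI-II libraries, without overlap.

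Mrpl12 forms the mobile stalk that recruits translation factors, and the protein is also known to bind the mitochondrial RNA polymerase. It had the highest level per length of all members, 79.2 ± 3.69 RPKM with DMSO (SD, n = 3), computed here as CPM per kilobase of exon. Its normalized counts were 1861, 1937 and 2042 with DMSO and 970, 1350 and 1406 with SKI-II, with SKI-II 1 the lowest. The log2 fold change was -0.65 ± 0.15 (SE, adjusted p = 0.00783, edgeR).

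Mrpl43, a protein added in mitochondria, had 1367, 1526 and 1647 normalized counts with DMSO and 869, 957 and 1101 with SKI-II (log2 fold change -0.63 ± 0.13 SE, adjusted p = 0.00485, edgeR). The groups were well apart. Its exons share 33.4% of their bases with Twnk on the opposite strand, the mitochondrial DNA helicase, which changed by -0.75. Reads of such a pair cannot be told apart if strand was not used in counting, and the sources used here do not give that setting.

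Of the other 2 called large subunit genes, Mrpl11, at the base of the stalk, was named after its values were seen. It fell from a mean of 419 ± 42.0 to 280 ± 11.3 normalized counts (SD, n = 3; log2 fold change -0.58, adjusted p = 0.0116, edgeR), and lost the call without SKI-II 2 (adjusted p = 0.0505). Mrpl9 had 1501, 1860 and 2327 normalized counts with DMSO and 1363, 1388 and 1436 with SKI-II (log2 fold change -0.44 ± 0.16 SE, adjusted p = 0.0497, edgeR). The wide spread lay in the DMSO group. Its call held with 1 library left out only when that was DMSO 1, with adjusted p between 0.0765 and 0.162 otherwise, and it was missed with DESeq2 (0.0509), limma-voom (0.0619) and RLE scaling (0.0521).

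Among the small subunit genes Mrps9, whose bacterial relative touches the P-site tRNA, fell most. Its normalized counts were 1092, 1231 and 1162 with DMSO and 562, 601 and 846 with SKI-II. SKI-II 3 stood above the other SKI-II libraries, though below all DMSO libraries, and the log2 fold change was -0.79 ± 0.16 (SE, adjusted p = 0.00438, edgeR). The gene lies at chr1:42851233-42905683 of GRCm38 without an overlapping exon.

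Mrps35, a protein specific to the mitochondrial small subunit, had 529, 534 and 606 normalized counts with DMSO and 258, 335 and 372 with SKI-II (log2 fold change -0.79 ± 0.16 SE, adjusted p = 0.00451, edgeR). Per length it was among the lowest members, at 4.02 ± 0.309 RPKM with DMSO (SD, n = 3). The groups did not overlap.

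Mrps25 had 535, 591 and 588 normalized counts with DMSO and 288, 394 and 376 with SKI-II (log2 fold change -0.69 ± 0.16 SE, adjusted p = 0.00654, edgeR). Nr2c2, a nuclear receptor gene on the opposite strand, covers 69.8% of its exon bases and changed by -0.18 (adjusted p = 0.331). The gene that shares most of the bases of Mrps25 thus did not pass the test, and the difference between the pair was not tested.

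Mrps26, a protein found only in mitochondria, had the smallest standard error among the members that fell. Its normalized counts were 1508, 1437 and 1490 with DMSO and 931, 1062 and 1025 with SKI-II (log2 fold change -0.56 ± 0.11 SE, adjusted p = 0.00413, edgeR). The SKI-II mean was 68.1% of that with DMSO.

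Mrps28 fell from 293, 326 and 422 to 161, 251 and 252 normalized counts (log2 fold change -0.65 ± 0.22 SE, adjusted p = 0.0405, edgeR), with the largest standard error among the called members. Its call was lost without DMSO 2 (adjusted p = 0.0798), DMSO 3 (0.122), SKI-II 1 (0.111) or SKI-II 2 (0.0619).

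Mrps5 belongs to a family at the mRNA entry channel, and Mrps15 to one that binds the ribosomal RNA early in assembly. Mrps5 had 917, 973 and 980 normalized counts with DMSO and 592, 693 and 741 with SKI-II (log2 fold change -0.50 ± 0.13 SE, adjusted p = 0.0123, edgeR), and lost the call without DMSO 2 (0.0534). Mrps15 had 899, 924 and 982 with DMSO and 693, 666 and 691 with SKI-II (log2 fold change -0.45 ± 0.12 SE, adjusted p = 0.0117, edgeR), and lost the call without SKI-II 2 (0.0526). Both groups were tight and apart.

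Mrps36, the dehydrogenase subunit, fell from 303, 251 and 290 to 191, 203 and 191 normalized counts (log2 fold change -0.53 ± 0.16 SE, adjusted p = 0.026, edgeR). It kept the call with 1 library left out only when that was DMSO 2, with adjusted p between 0.0537 and 0.0655 for the other 5.

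The 6 members that rose were led by Mrpl24 and Mrps6. Mrpl24, whose bacterial relative starts the assembly of the large subunit, had 1118, 1279 and 1442 normalized counts with DMSO and 2391, 2140 and 2496 with SKI-II. All SKI-II libraries lay far above the DMSO libraries, and the log2 fold change was 0.87 ± 0.13 (SE, adjusted p = 0.000767, edgeR). Mrpl24 lies at chr3:87919506-87923672 of GRCm38. Rrnad1 on the opposite strand covers 26.3% of its exon bases and changed by 0.04 (adjusted p = 0.921), with 1711 counts in all libraries beside 11063 for Mrpl24.

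Mrps6, a small subunit protein with a bacterial homologue, had 675, 687 and 699 normalized counts with DMSO and 1172, 1293 and 944 with SKI-II (log2 fold change 0.72 ± 0.14 SE, adjusted p = 0.003, edgeR). The DMSO libraries were nearly equal and SKI-II 3 was the lowest treated library. The gene lies at chr16:92058270-92112227 and shares 19.9% of its exon bases in all with 2 genes of the same strand, Gm49711, which was not tested, and the myo-inositol transporter gene Slc5a3, which changed by 0.05 (adjusted p = 0.838). How reads of the shared stretch were assigned was not tested.

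The Mrps18 genes are 3 paralogs of one bacterial protein, each kept in a different place of the particle. Mrps18b, in the small subunit, rose from 547, 617 and 571 to 725, 766 and 908 normalized counts (log2 fold change 0.47 ± 0.14 SE, adjusted p = 0.0207, edgeR). Mrps18c, also in the small subunit, went from 326, 278 and 377 to 415, 407 and 441 (log2 fold change 0.36 ± 0.16 SE, adjusted p = 0.0942, edgeR), with no overlap between the groups but no call. Mrps18a, in the large subunit, had 940, 1023 and 1065 with DMSO and 953, 979 and 1024 with SKI-II (log2 fold change -0.03 ± 0.12 SE, adjusted p = 0.839, edgeR). The paralogs thus took different values, though the differences between them were not tested. The call of Mrps18b was lost without DMSO 1 (0.0635), DMSO 2 (0.0561) or SKI-II 3 (0.0723), its exons share 30.5% of their bases with the antisense gene Gm16279, and Mrps18c would be called without DMSO 3 (0.0475).

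The other 3 that rose did so by little and are all of the large subunit. Mrpl19 went from 1235, 1582 and 1760 to 1808, 2031 and 2429 normalized counts (log2 fold change 0.45 ± 0.16 SE, adjusted p = 0.0494, edgeR), with 36.0% of its exon bases shared with Gcfc2 on the opposite strand, which changed by 0.01. Mrpl35 went from 483, 517 and 524 to 660, 592 and 779 (log2 fold change 0.42 ± 0.14 SE, adjusted p = 0.042, edgeR), and was the only one of the 6 without an overlapping exon. Mrpl58, the peptidyl-tRNA hydrolase that frees stalled mitochondrial ribosomes and is built into the large subunit, went from 418, 432 and 509 to 570, 576 and 631 (log2 fold change 0.39 ± 0.14 SE, adjusted p = 0.0492, edgeR).

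These calls depended on single libraries. Mrpl19 lost it without DMSO 1 (adjusted p = 0.146), DMSO 2 (0.119), SKI-II 2 (0.0981) or SKI-II 3 (0.153). Mrpl35 kept it only with SKI-II 2 left out (0.0633 to 0.142 otherwise) and Mrpl58 only with DMSO 3 left out (0.0708 to 0.178 otherwise). With no filter Mrpl35 (0.0653) and Mrpl58 (0.106) were not called, nor was Mrpl58 with DESeq2 (0.0623). Of the 6 higher and 15 lower calls, 2 and 9 held with each library left out in turn, the higher ones being Mrpl24 and Mrps6 and the lower ones Mrpl28, Mrpl18, Mrpl16, Mrpl12, Mrpl43, Mrps9, Mrps35, Mrps25 and Mrps26. All 21 kept their sign in every alternative fit.

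**Figure D3:**
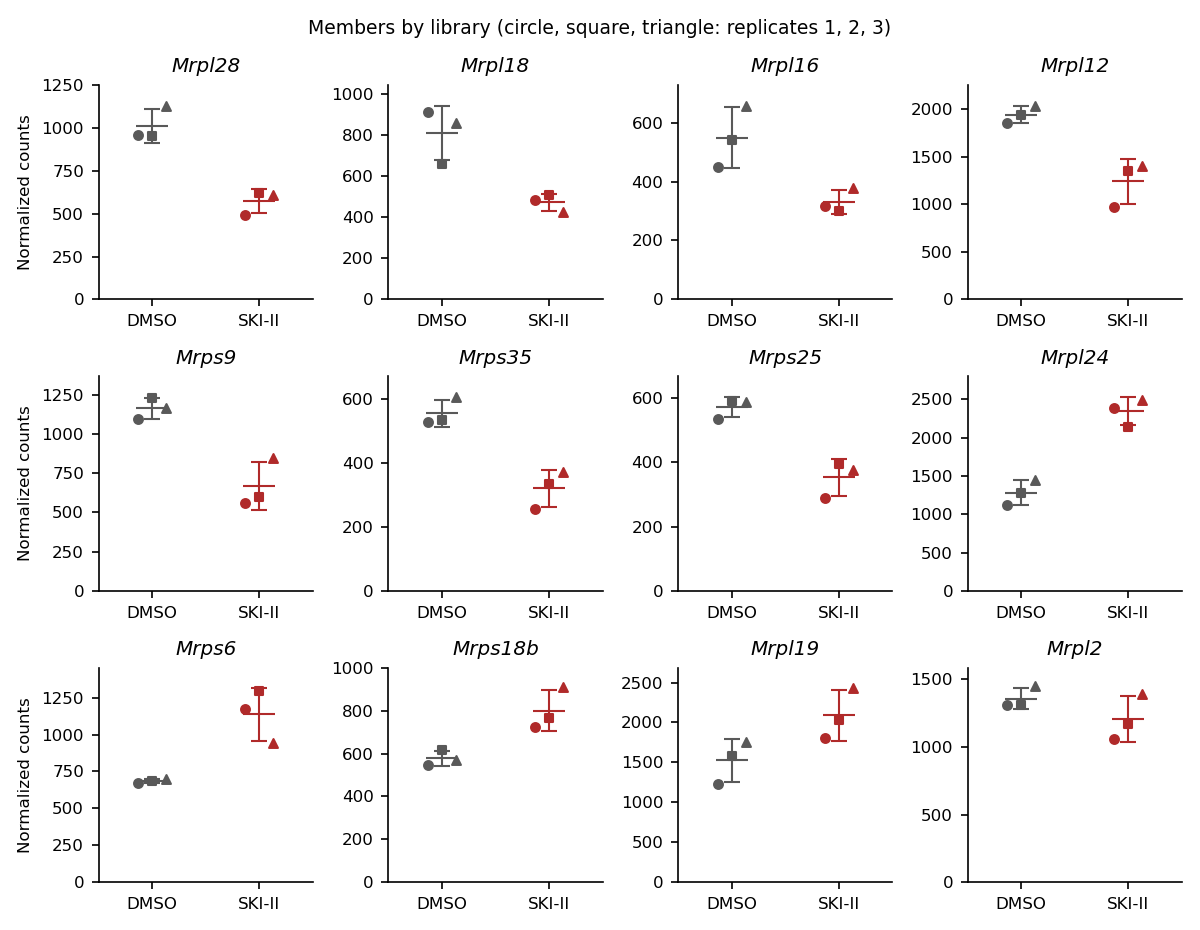
Normalized counts (y axis, from 0) of 12 members in each DMSO and SKI-II library, with the mean and SD, n = 3. Circles, squares and triangles are replicates 1, 2 and 3. The groups do not overlap in the 7 members that fell or the 4 that rose, and do overlap in Mrpl2.

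Members were also divided by overlap with other genes, with no test between the classes. Of the 33 members that share exon bases with another gene on either strand 5 rose (15.2%) and 6 fell (18.2%), and of the 45 that share none 1 rose (2.22%) and 9 fell, beside 18.4% and 19.7% of all tested genes. The median was -0.25 in both. The lower calls thus stood in members with and without such neighbours, while 4 of the 6 higher calls, those of Mrpl24, Mrps6, Mrps18b and Mrpl19, were in members that share 19.9% to 36.0% of their exon bases. Mrpl58 shares 0.06% with the antisense gene Ict1os, which had 40 counts in all libraries beside 3174 for Mrpl58, and Mrpl35 shares none. Mrpl53 shows the limit of such a gene, with 88.0% of its exon bases overlapped, 89 counts in all libraries and a log2 fold change of -0.25 that could not be told from 0 (adjusted p = 0.672).

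Of the 57 members without a call, 20 (35.1%) still had no overlap between the groups, beside 21.3% of the 7606 tested genes without a call. They include Mrpl42 (log2 fold change -0.49, adjusted p = 0.0506) and Mrps2 (0.49, adjusted p = 0.0601), which lay just outside the threshold and were named after their values were seen. Both were called with DESeq2 (0.0471 and 0.0487) and limma-voom (0.0463 and 0.0453), and each in 1 of the 6 fits that left out a library. The members with the highest levels were not all among those that fell. Mrpl2, next to Mrpl12 in level at 72.3 ± 4.24 RPKM with DMSO (SD, n = 3), belongs to a family at the core of the peptidyl transferase centre and had 1310, 1312 and 1449 normalized counts with DMSO and 1059, 1170 and 1391 with SKI-II, with overlap and no call (log2 fold change -0.17 ± 0.13 SE, adjusted p = 0.352, edgeR).

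In the small subunit the highest levels per length were those of Mrps23, Mrps21 and Mrps15. Mrps23 had 48.4 ± 6.85 RPKM with DMSO and 37.5 ± 6.51 with SKI-II (SD, n = 3; log2 fold change -0.37, adjusted p = 0.0975, edgeR), and passed without DMSO 1 (0.0398) or SKI-II 3 (0.0334). Mrps21 had 46.1 ± 4.72 and 45.2 ± 8.53 RPKM (SD, n = 3; log2 fold change -0.03, adjusted p = 0.898, edgeR). Mrps15 fell from 34.4 ± 1.57 to 25.2 ± 0.548 RPKM. Neither Mrps23 nor Mrps21 was called with all libraries in the fit, and the groups overlapped for both. Mrps30, the large subunit protein with a small subunit name, had 466, 471 and 501 normalized counts with DMSO and 426, 442 and 520 with SKI-II, without a call (adjusted p = 0.805).

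Proteins of one particle are needed in like amounts, but their mRNAs were not alike in RPKM. The length used takes in all annotated exon bases of a gene, such as 607 for Mrpl34 and 8631 for Mrps35. The part of this length in the spread was not tested. With DMSO the members ran from 1.25 RPKM for Mrpl53 to 79.2 RPKM for Mrpl12, with quartiles of 9.96 and 27.8 and a median of 17.1 RPKM, beside a median of 6.75 over tested genes with a length. The large subunit had a median of 17.5 and the small subunit of 15.7 RPKM. Across the 78 genes, which share the same libraries, the level with DMSO and the log2 fold change had a Spearman correlation of -0.13 (-0.22 in the large and 0.09 in the small subunit), beside -0.26 over the tested genes with a length.

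**Figure D4:**
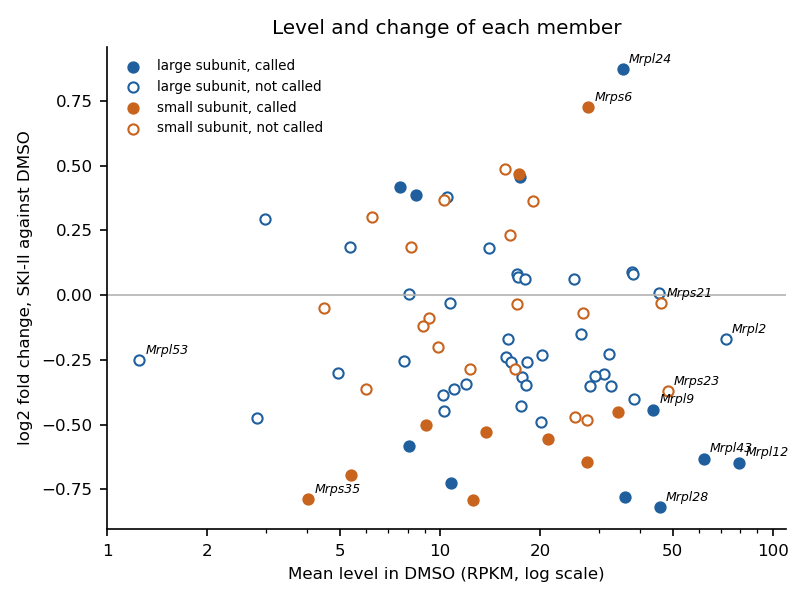
Mean level of each member with DMSO in RPKM (x axis, log scale) against its log2 fold change with SKI-II (y axis), large subunit in blue and small subunit in orange, filled where called. Called members stand at low and at high levels, from Mrps35 at 4.02 to Mrpl12 at 79.2 RPKM.

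The members lie on 17 chromosomes, up to 11 of them on chromosome 11, and many start next to another gene. A protein-coding gene on the opposite strand began within 1000 bases upstream for 18 of the 78 (23.1%), beside 11.3% of tested protein-coding genes. Of the 17 such partners that were tested 2 rose (11.8%) and 4 fell (23.5%), beside 18.4% and 19.7% of all tested genes. Mrps18b rose beside Ppp1r10, whose start is 45 bases away and which rose by 1.20 on the log2 scale (adjusted p = 0.0272). Mrpl51 (log2 fold change -0.34, adjusted p = 0.164) starts 100 bases from the condensin gene Ncapd2, which fell by 2.18 (adjusted p = 1.01e-05), and Mrps34 (-0.48, adjusted p = 0.0693) starts 29 bases from Eme2, which rose by 1.51 (adjusted p = 0.043). These pairs were chosen after their values were seen.

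Promoters of genes for mitochondrial proteins are known for sites of NRF1, of ETS factors such as GABP, and of YY1. The start regions of 69 members were found in the RefSeq promoters of GRCm38.p6 (75 promoters, each 250 bases before to 50 after a start, the start being that of RefSeq, which differs from the GENCODE gene end for some), and they were searched on both strands. The NRF1 core GCGCANGCG was in 21.3% of them, beside 13.7% of the promoters of tested genes and 6.25% of all promoters of that length. The ETS core CCGGAAG was in 34.7% beside 18.3% and 8.86%, and the YY1 core AAGATGGC in 12 of the 75, beside 4.68% and 2.75%. At least 1 of the 3 motifs was in 58.7% of the members' promoters, beside 31.9% for tested genes. In the promoters shown no match overlaps one of another motif, and a match is a description of letters and not a bound site.

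The letters stood in promoters of members that fell and of members that rose. Of 13 promoters of members that fell 4 held the NRF1 core, 3 the ETS core and none the YY1 core, and of 5 of members that rose 1, 2 and 1 did so. The 6 shown are the called members with the largest change for each motif (Mrps9 for NRF1, Mrpl18 for ETS, Mrpl35 for YY1), the member that fell and the member that rose with both NRF1 and ETS cores (Mrps26 and Mrps18b), and Mrpl24, which rose most and has none. They run 5′ to 3′ on the strand of the gene, with motif matches in capitals. The windows are chr1:42850983-42851282 (plus strand), chr17:12916042-12916341 (minus), chr2:130563507-130563806 (plus), chr17:35916391-35916690 (minus), chr6:71823735-71824034 (minus) and chr3:87919294-87919593 (plus).
Mrps9: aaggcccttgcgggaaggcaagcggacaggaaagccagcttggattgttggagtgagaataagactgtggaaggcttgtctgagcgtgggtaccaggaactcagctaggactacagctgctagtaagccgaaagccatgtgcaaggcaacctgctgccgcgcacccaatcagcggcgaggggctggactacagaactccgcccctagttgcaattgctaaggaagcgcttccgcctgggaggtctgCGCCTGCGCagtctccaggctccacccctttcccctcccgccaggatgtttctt
Mrpl18: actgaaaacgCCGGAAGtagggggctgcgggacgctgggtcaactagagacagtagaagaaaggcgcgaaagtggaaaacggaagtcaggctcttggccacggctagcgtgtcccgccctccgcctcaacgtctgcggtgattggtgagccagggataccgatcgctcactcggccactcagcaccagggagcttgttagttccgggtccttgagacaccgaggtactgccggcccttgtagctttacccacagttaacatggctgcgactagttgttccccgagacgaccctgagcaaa
Mrps26: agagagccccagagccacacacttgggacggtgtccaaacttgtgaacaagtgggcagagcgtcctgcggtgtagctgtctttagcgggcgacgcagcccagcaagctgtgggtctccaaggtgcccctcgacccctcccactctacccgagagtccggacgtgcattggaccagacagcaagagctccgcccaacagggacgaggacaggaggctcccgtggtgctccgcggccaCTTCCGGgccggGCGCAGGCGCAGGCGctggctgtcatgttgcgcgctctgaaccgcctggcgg
Mrps18b: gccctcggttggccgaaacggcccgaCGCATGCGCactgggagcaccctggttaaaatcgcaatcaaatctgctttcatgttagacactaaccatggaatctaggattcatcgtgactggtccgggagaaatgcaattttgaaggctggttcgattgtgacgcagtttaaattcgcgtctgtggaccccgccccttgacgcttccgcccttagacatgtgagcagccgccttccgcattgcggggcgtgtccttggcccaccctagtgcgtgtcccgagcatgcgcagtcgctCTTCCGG
Mrpl35: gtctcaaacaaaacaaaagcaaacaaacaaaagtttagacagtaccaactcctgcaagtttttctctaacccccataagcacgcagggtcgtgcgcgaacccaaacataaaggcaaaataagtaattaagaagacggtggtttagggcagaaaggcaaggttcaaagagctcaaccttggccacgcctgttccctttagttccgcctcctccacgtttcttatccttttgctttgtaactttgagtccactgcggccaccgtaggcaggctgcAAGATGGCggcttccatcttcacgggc
Mrpl24: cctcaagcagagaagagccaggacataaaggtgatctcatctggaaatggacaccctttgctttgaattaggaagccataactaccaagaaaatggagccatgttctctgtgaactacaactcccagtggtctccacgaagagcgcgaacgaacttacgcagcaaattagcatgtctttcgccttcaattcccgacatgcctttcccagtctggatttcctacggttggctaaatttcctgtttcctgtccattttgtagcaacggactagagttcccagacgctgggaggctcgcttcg

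In Mrps26 the capitals hold 2 overlapping copies of the NRF1 core just after an ETS core, close to the start. Mrps18b has 1 NRF1 core far upstream and 1 ETS core at the end of the window. Mrps26 (-0.56) and Mrps18b (0.47) were picked as the member that fell and the member that rose with both cores. Their opposite directions follow from that choice.

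The rest of the mitochondrial translation machinery, taken from lists written by hand, held calls in both directions. Of 67 tested genes 8 rose (11.9%) and 14 fell (20.9%), beside 18.4% and 19.7% of all tested genes, with a median log2 fold change of -0.11. The lower share was thus near that of all genes and the higher share below it. The higher calls numbered 2 without DMSO 2 and 3 without SKI-II 2, and the lower calls 9 without DMSO 2, SKI-II 1 or SKI-II 2. The 5 mitoribosomal proteins with other symbols had no call in either direction by edgeR, DESeq2 or limma-voom, with 0 higher and 1 lower at an unadjusted p below 0.05. They ran from -0.43 for Chchd1 (adjusted p = 0.117) to 0.16 for Aurkaip1 (0.339), with Dap3 at -0.31 (0.0819), so they stood in the range of the members.

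Of 12 translation factors 4 fell (33.3%) and 1 rose (8.33%), counts too small to set against the shares of all genes. The elongation factor gene Gfm1 fell from 1025, 1104 and 1040 to 508, 486 and 543 normalized counts (log2 fold change -1.04 ± 0.12 SE, adjusted p = 0.00015, edgeR), further than any ribosomal member. Oxa1l, the insertase that takes the nascent chain at the exit of the large subunit, fell by 0.81, and Tufm, the factor that delivers aminoacyl-tRNA, by 0.64 on the log2 scale. The initiation factor gene Mtif2 rose by 0.63 ± 0.12 (SE, adjusted p = 0.00291, edgeR). These 4 held with each library left out in turn.

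Of 27 genes of ribosome assembly and rRNA modification 4 rose and 4 fell (14.8% each, beside 18.4% and 19.7% of all tested genes), with a median of 0.04. At an unadjusted p below 0.05 by edgeR, 8 of the 27 were higher and 7 lower, beside 23.4% and 23.9% of all tested genes. The pseudouridine synthase gene Rpusd4 changed by -1.18 ± 0.22 SE, C1qbp by -0.88 ± 0.15 and the GTPase gene Noa1 by -0.80 ± 0.14 (adjusted p = 0.00258, 0.00164 and 0.00186, edgeR). The GTPase gene Mtg2 rose by 0.66 ± 0.20, the helicase gene Ddx28 by 0.58 ± 0.14 and the rRNA methyltransferase gene Nsun4 by 0.49 ± 0.16 (adjusted p = 0.0232, 0.0102 and 0.0372, edgeR). The calls of the 3 that rose were lost without DMSO 2 (0.0737, 0.0514 and 0.154), and those of Mtg2 and Nsun4 also without DMSO 3 (0.0631 and 0.0981), SKI-II 1 (0.0656 and 0.100) or SKI-II 2 (0.0821 and 0.110).

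Of 14 genes of mitochondrial transcription and RNA stability 2 rose (14.3%) and 3 fell (21.4%). These counts are also too small to set against the shares of all genes. The transcription elongation factor gene Tefm changed by 0.97 and the RNA-binding protein gene Slirp by 0.54, and the initiation factor gene Tfb2m by -0.95, the RNA helicase gene Supv3l1 by -0.56 and the RNA polymerase gene Polrmt by -0.39 (adjusted p = 0.0149, 0.015, 0.0172, 0.014 and 0.0387, edgeR). Each of these calls was lost with 1 library left out. Without SKI-II 2 the adjusted p was 0.0645 for Tefm, 0.0725 for Slirp, 0.0609 for Supv3l1 and 0.120 for Polrmt, without DMSO 2 it was 0.0645, 0.0577, 0.056 and 0.173 for the same genes, and without SKI-II 1 it was 0.0663 for Tfb2m and 0.0969 for Polrmt.

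Among 9 nuclear regulators of such genes that were tested 3 fell (33.3%) and 1 rose (11.1%), again too few to set against the shares of all genes. The coactivator gene Ppargc1b changed by -0.97 ± 0.15 SE, Gabpa by -0.52 ± 0.12 and Nrf1 by -0.45 ± 0.15 (adjusted p = 0.00103, 0.00724 and 0.0324, edgeR). Myc went from 7.77, 10.1 and 7.92 to 130, 80.2 and 36.7 normalized counts (log2 fold change 3.24 ± 0.52 SE, adjusted p = 0.00094, edgeR), with all treated libraries above the DMSO libraries and far apart from each other. Nrf1 lost its call without DMSO 2 (0.0799), DMSO 3 (0.0864), SKI-II 1 (0.086) or SKI-II 2 (0.101), and Yy1 was not called (-0.24, adjusted p = 0.166).

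Set beside neighbouring gene groups in the same fit, the members lay between the cytosolic ribosome and the respiratory chain in median and lower share. The share called higher was 7.69% for the members, above that of both groups. Of 83 cytosolic ribosomal protein genes none rose and 3 fell (3.61%), beside 18.4% and 19.7% of all tested genes. Their median was -0.06, with 0 higher also by DESeq2 and limma-voom and at an unadjusted p below 0.05 by edgeR. Of 80 nuclear genes for respiratory chain subunits 44 fell (55.0%) and 1 rose (1.25%), with a median of -0.47. Their summed level with SKI-II was 0.664 of that with DMSO, beside 0.895 for the members. Of the 13 mRNAs that the mitochondrial ribosome translates 10 were tested, with 3 higher (mt-Nd4, mt-Nd5 and mt-Nd6; 30.0%, beside 18.4% of all tested genes), 7 not called, none lower at an adjusted or unadjusted p below 0.05 by edgeR or at an adjusted one by DESeq2 or limma-voom, and a summed level of 10200 to 13200 CPM with DMSO and 13600 to 17300 CPM with SKI-II. These transcripts carry short or no poly(A) tails compared with nuclear mRNAs, and the libraries were made from poly(A) RNA, whose part in these values was not tested. The differences between the groups of genes were not tested.

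**Figure D5:**
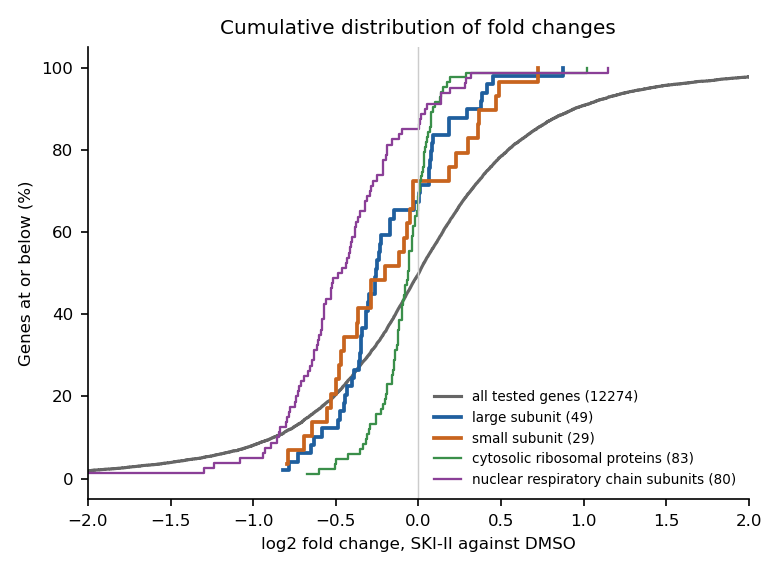
Share of genes at or below a log2 fold change (y axis, percent) against the log2 fold change with SKI-II (x axis, shown from -2 to 2) for both subunits, 2 neighbouring gene groups and all 12274 tested genes. The subunit medians, -0.25 (large) and -0.20 (small), lie between those of the cytosolic ribosomal proteins (-0.06) and nuclear respiratory chain subunits (-0.47). The upper quartiles of the subunits, 0.06 and 0.19, lie above those of both neighbouring groups (0.03 and -0.21).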

How the data were processed

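Poly(A) RNA of the 6 libraries was sequenced, and the table used here holds the raw read counts that the authors deposited for each Ensembl gene and library, which are not normalized. The submitters' processing notes name Trimmomatic 0.36, STAR 2.5.2b, featureCounts, Subread 1.5.2 and DESeq2. The sources used here do not give the genome build, annotation or strandedness of the counting. Positions and symbols were taken from GENCODE M21 on GRCm38. Groups and replicate numbers came from the sample labels, dose and time from the study's text.

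Counts were tested with edgeR 4.0.16 in R 4.3.3 (quasi-likelihood F test, TMM scaling, expression filter at 10 counts a library and 15 in all, Benjamini-Hochberg over 12274 genes). Fold changes were not shrunk. Standard errors came from the fitted weights and the moderated dispersion. The common biological coefficient of variation was 17.5%, and depth lay between 12495957 and 20050677 counts. Libraries within a group differed by more than sampling noise (chi-square per degree of freedom 15.4 to 58.1), so each counted as 1 replicate. The fits were tested on simulated data. Alternatives were DESeq2 1.42.0, limma-voom (limma 3.58.1), other scalings and filters, each library left out, the replicate number as a block, subunits by structure, and members without exon overlap.

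Named genes are the called members at the top and bottom of the fold changes of each subunit, 5 at each end, the 3 with the highest level per length, the Mrps18 genes, Mrps30 and Mrps36, and up to 3 called genes in each direction of every other list. Of the list symbols Mtrfr matched no row. The members and lists were chosen with earlier results of these data known. No promoter was found in the RefSeq table for 9 members.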

Additional observations from a re-analysis of the deposited data

How the results depend on the processing

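No member was called beyond a log2 fold change of 1 in any alternative, and the median of the members stayed between -0.30 and -0.18. Leaving out 1 library gave 2 to 6 members higher and 10 to 21 lower, in the large subunit 1 to 3 higher and 5 to 11 lower, in the small subunit 1 to 3 higher and 5 to 10 lower, with medians of -0.31 to -0.19 and -0.32 to -0.15, and among the other genes of mitochondrial translation 2 to 9 higher and 9 to 18 lower. The members called higher were fewest without DMSO 2 or SKI-II 3 (2 each). Restricted to members without exon overlap, 1 was higher and 9 lower, 1 and 3 in the large subunit and 0 higher in the small subunit. With 45 of the 78 members left, the share called higher was 2.22%. Without a filter 2 large subunit members were called higher, and 19 members lower (24.4%, beside 11.1% of all genes). With both libraries numbered 3 left out, an alternative added after seeing the data, 1 small subunit member and 5 of the other translation genes were called higher. For these changes of members, filter and libraries the cause was not tested. With 1 library left out Mrps18a lay between -0.10 and 0.00 (above 0 before rounding, without DMSO 3) and Mrps21 between -0.13 and 0.12, being above 0 at 0.02 without DMSO 1 and at 0.12 without SKI-II 3, and at 0.13 with both libraries numbered 3 left out. Neither was called in any of these. The median of all genes moved by at most 0.02 under any scaling. Depth limits Mrpl53 most, at 8 to 20 counts a library.

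With the replicate number as a block, 27 members were lower (34.6%, beside 23.0% of all genes) and 7 higher (8.97%, beside 22.5%), 15 large subunit members were lower, and all 21 calls held. The deviations of same-numbered libraries correlated by 0.241, 0.0153 and 0.447, and DMSO 1 correlated more with SKI-II 2 (0.284) than with SKI-II 1, so the numbers were not taken to pair the libraries.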
